A study of Mus musculus with 4 samples.

Results

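The genes that carry out or restrain apoptosis and necroptosis were followed in laser-captured mouse Paneth cells with reduced function of the autophagy gene Atg16l1. The list held 42 names of caspases, BCL2 family members, death receptors with their adaptors, and necroptosis and p53 genes, and a probe set belonged to it when the platform annotation gave it exactly 1 of these names. This gave 95 of the 45037 non-control probe sets, for 37 of the 18193 genes measured by such probe sets. Bim is another name of Bcl2l11 and marked no probe set of its own, Bcl2a1a was measured only by probe sets shared with its near-identical copies, and Bax, Ripk1 and Trp53 were not analysed here.

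Each of 4 arrays measured RNA cut from tissue by laser capture, 2 from Atg16-hypomorph and 2 from wildtype mice, all of a mixed C57BL/6 and 129ola strain. Paneth cells sit at the bottom of small intestinal crypts and secrete lysozyme and other antimicrobial proteins; a hypomorph carries an allele whose function is lowered but not abolished, and Atg16l1 acts in building the autophagosome. The sources used here do not give age, sex, treatment, the nature of the allele or which animal each array came from. Xist, a marker of sex described below, differed between the groups, so sex and genotype cannot be told apart for any gene here. Captured regions from a single mouse on both arrays of a group would make the p-values below too small. Atg16l1 itself measured 966 and 995 with the hypomorph label and 1335 and 1183 with the wildtype label, a log2 difference of -0.35 that was not called (limma, adjusted p = 0.102). Its probe set may lie outside the altered part of the gene, so it is a weak check of the labels.

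Apoptosis runs along 2 routes. In the mitochondrial route, BH3-only proteins such as Bim and Bid unleash the pore formers Bax and Bak1 against pro-survival BCL2 proteins, cytochrome c leaves the mitochondrion, and the Apaf1 apoptosome activates caspase 9. In the receptor route, Fas or TNF receptors gather Fadd, Tradd and caspase 8; where caspase 8 is held back, Ripk1, Ripk3 and Mlkl can instead rupture the cell, which is necroptosis. Autophagy proteins are known to protect the intestinal epithelium from death driven by TNF.

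At the level of the gene, no change of a listed cell death gene passed the test. The brightest probe set stood for each gene, and values were compared as log2(intensity + 32), hypomorph minus wildtype, in a limma fit over all probe sets. A probe set was tested when its mean log2 value reached the median of all probe sets, which 53 of the 95 did, and 31 genes had at least 1 of them. Of these 31 genes 0 were called higher and 0 lower at a Benjamini-Hochberg adjusted p under 0.05, where 2.53% of all 11577 tested genes were called higher and 1.70% lower, 4.23% in all. With no adjustment, p was under 0.05 for 3 members that were higher (Mdm2, Tradd and Bik) and 1 that was lower (Tnfrsf21), or 4 of 31, where the share among all genes was 10.0% higher and 11.6% lower, 21.7% in all. At the level of single probe sets 1 of 53 was called, the dimmest of the 3 tested for Bcl2, which was lower in hypomorph. Among all probe sets 1.67% were called lower and 2.04% higher, 3.71% in all.

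Differences between the groups were small for most members, as they were for most genes on the arrays. The median difference of the 31 genes was 0.03, against -0.02 over all tested genes, and single genes ranged from -0.60 for Tnfrsf21 to 0.65 for Mdm2. The difference was smaller than 0.25 in either direction for 25 of the 31, or 80.6%, against 71.5% of all genes. For 22 of the 31, or 71.0%, the whole 95% interval of the difference lay within 0.5 of equality on the log2 scale, against 58.4% of all genes. Both hypomorph arrays read above both wildtype arrays for 10 members and below both for 6, where 23.4% and 30.0% of all genes did so. A shift of the size seen for Mdm2 or Tnfrsf21 can be missed with 2 arrays per group. In captured tissue, fewer cells of a type and less RNA per cell cannot be told apart.

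**Figure D1:**
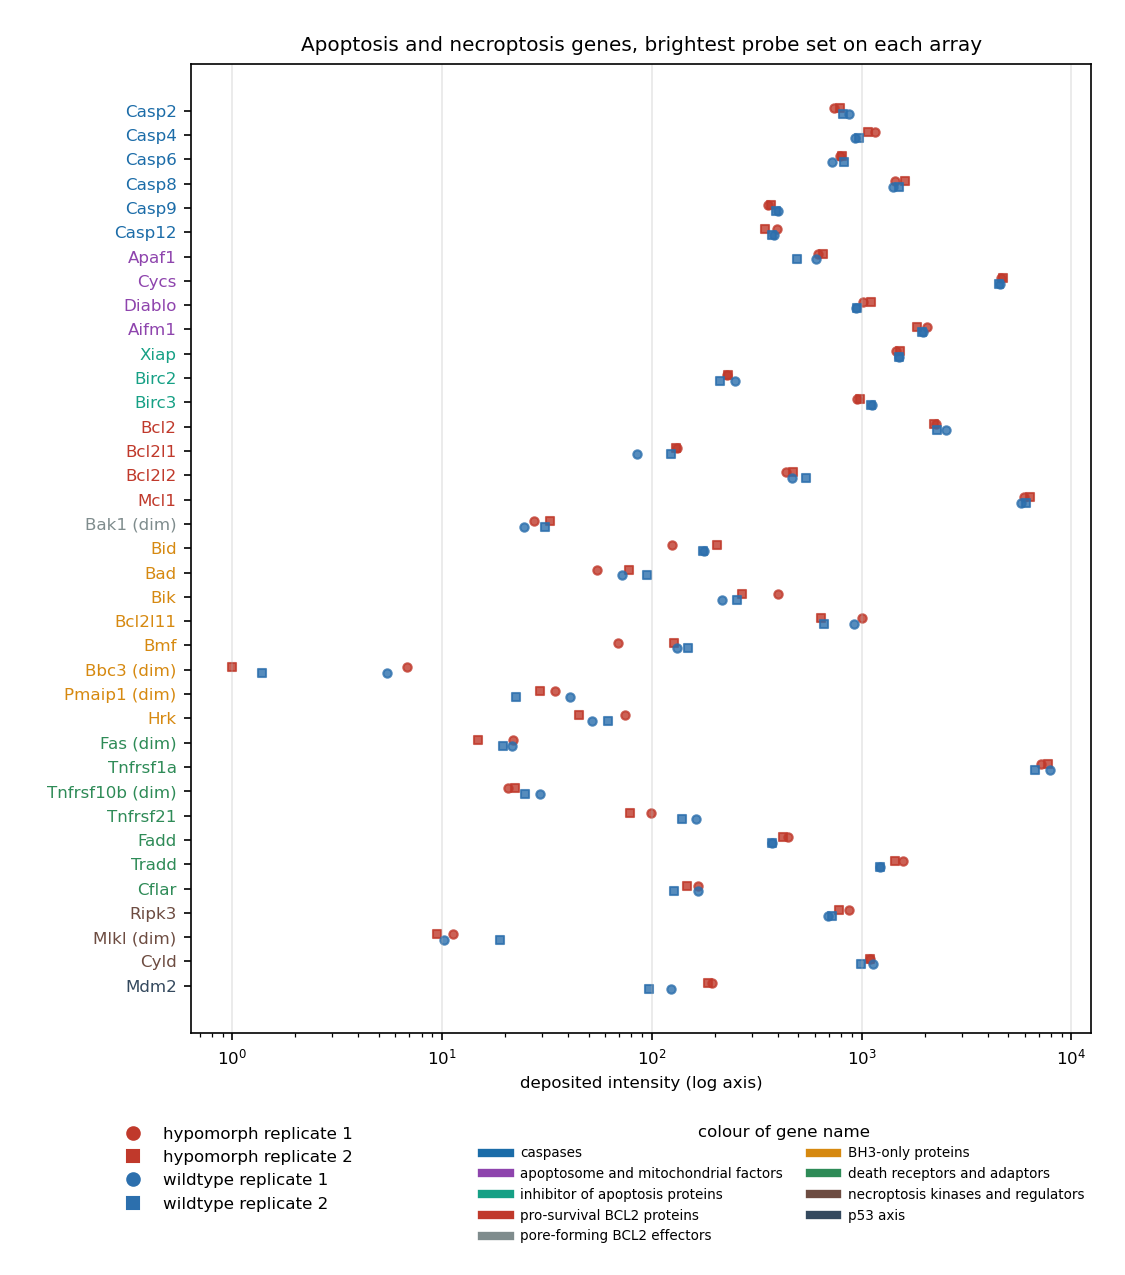
Deposited intensity (log axis) of the brightest probe set of each of the 37 measured genes on each of the 4 arrays, red for hypomorph and blue for wildtype, circles for replicate 1 and squares for replicate 2; the colour of a name gives the role of the gene. The colours lie close together in most rows, and 6 genes marked dim did not pass the brightness threshold.

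The caspases, the proteases that start and execute cell death, read much alike in both groups. Casp8, which starts the receptor route and restrains necroptosis, read 1449 and 1605 in hypomorph against 1412 and 1507 in wildtype. The groups overlapped, and the difference was 0.06 with a 95% interval from -0.15 to 0.28. Casp9, the caspase of the apoptosome, read 359 and 372 in hypomorph and 400 and 393 in wildtype (difference -0.11, interval -0.40 to 0.19). The other 2 probe sets of Casp9 were not tested. The executioner Casp6 read 788 and 803 against 723 and 823, with overlap.

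Casp4, the sensor of intracellular lipopolysaccharide that opens the non-canonical inflammasome, had the largest difference among the caspases. It read 1155 and 1074 in the hypomorph samples and 929 and 971 in the wildtype samples. Both hypomorph values lay above both wildtype values, yet the difference of 0.22 (SE 0.10) did not pass the test (limma, adjusted p = 0.256). Casp2, a caspase tied to p53 and mitotic stress, read 736 and 790 against 869 and 816. It lay below wildtype on both arrays, by a difference of -0.14 (SE 0.11, adjusted p = 0.524 in limma). Casp12, which resides at the endoplasmic reticulum, had 2 tested probe sets whose differences had opposite signs, -0.03 and 0.13. For all 6 caspases the 95% interval stayed within 0.5 of equality.

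Among the mitochondrial factors, Cycs encodes cytochrome c, the signal that assembles the apoptosome. Its brightest probe set read 4622 and 4710 in hypomorph and 4555 and 4539 in wildtype, a difference of 0.04 with an interval from -0.10 to 0.17. The other tested probe sets of Cycs gave 0.16 and -0.0016, and none was called. Apaf1, the scaffold of the apoptosome, read 623 and 655 against 607 and 492, so that the hypomorph arrays were the higher ones without overlap. Its difference was 0.21 (SE 0.13, adjusted p = 0.407 in limma), and a second probe set gave 0.33 in the same direction with an adjusted p of 0.370. Diablo, which releases caspases from their inhibitors, read 1020 and 1110 against 939 and 947, again without overlap (0.17, SE 0.10, limma adjusted p = 0.390). Aifm1, a mitochondrial flavoprotein that can move to the nucleus, differed by -0.01 with an interval from -0.21 to 0.19. Aifm1 and Xiap are the members on the X chromosome. Xist, the RNA that coats the inactive X chromosome of female cells, read 4414 and 4510 in hypomorph but 18.04 and 25.6 in wildtype. The groups thus also differ in a marker of sex, and this holds for the comparison of every gene, on the X chromosome or not.

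The inhibitor of apoptosis proteins bind caspases or, for Birc2 and Birc3, attach ubiquitin to Ripk1 in the TNF receptor complex. Xiap, the direct caspase inhibitor, read 1458 and 1523 in hypomorph against 1510 and 1503 in wildtype. The values overlapped, and the difference was -0.02 with an interval from -0.22 to 0.18. Other tested probe sets of Xiap gave 0.14 and -0.29. Birc2 read 228 and 230 against 250 and 212, also with overlap. Birc3 read 951 and 988 in hypomorph and 1122 and 1115 in wildtype. Both hypomorph values were lower, by -0.20 (SE 0.10), without passing the test (limma, adjusted p = 0.293), and a dimmer probe set of Birc3 gave 0.20, of opposite sign.

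The pro-survival BCL2 proteins hold the pore formers in check. Mcl1, the short-lived guardian of many epithelial cells, was covered by 6 tested probe sets. The brightest read 5962 and 6379 in hypomorph and 5753 and 6100 in wildtype, a difference of 0.06 with an interval from -0.08 to 0.20. The other 5 ranged from -0.04 to 0.16, and 0 of the 6 were called.

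Bcl2, the founding member of the family, was the one place where a probe set was called. Its brightest probe set read 2269 and 2219 in the hypomorph samples and 2535 and 2282 in the wildtype samples, and a second read 1375 and 1273 against 1234 and 1325. Neither was called, with differences of -0.10 (interval -0.29 to 0.09) and 0.05 (interval -0.17 to 0.27). The dimmest, whose suffix _x_at marks probes that may also match other transcripts, read 404 and 524 in hypomorph and 773 and 803 in wildtype. It fell on both hypomorph arrays, with a difference of -0.74 (SE 0.14, 95% interval -1.05 to -0.42, adjusted p = 0.0214 in limma). The call was lost without hypomorph replicate 1 (-0.56, adjusted p = 0.0708) and without wildtype replicate 2 (-0.71, adjusted p = 0.0571). The interval of the called probe set did not meet that of either brighter tested probe set, while the intervals of those 2 overlapped. The other 2 probe sets annotated to Bcl2 were too dim to test. The sources used here do not say which parts of the transcript they match. Bcl2 lies on chromosome 1, which also carries Atg16l1 and the members Casp8 and Cflar, at 0.06 and 0.08 without a call. A link to the position was not tested.

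The remaining survival genes did not pass the test. Bcl2l1, which encodes BCL-XL, read 132 and 131 in hypomorph and 85.3 and 124 in wildtype, a difference of 0.27 with a wide interval from -0.14 to 0.68. Bcl2l2 read 439 and 469 against 468 and 542, and its second tested probe set was lower on both hypomorph arrays by -0.35 (interval -0.74 to 0.05). A probe set shared by Bcl2a1a and its copies Bcl2a1b and Bcl2a1d, genes of the A1 survival protein found mainly in blood cells, read 367 and 379 against 496 and 472. It was lower by -0.35 (SE 0.13) on both hypomorph arrays without being called (limma, adjusted p = 0.166), and it cannot tell the copies apart.

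**Figure D2:**
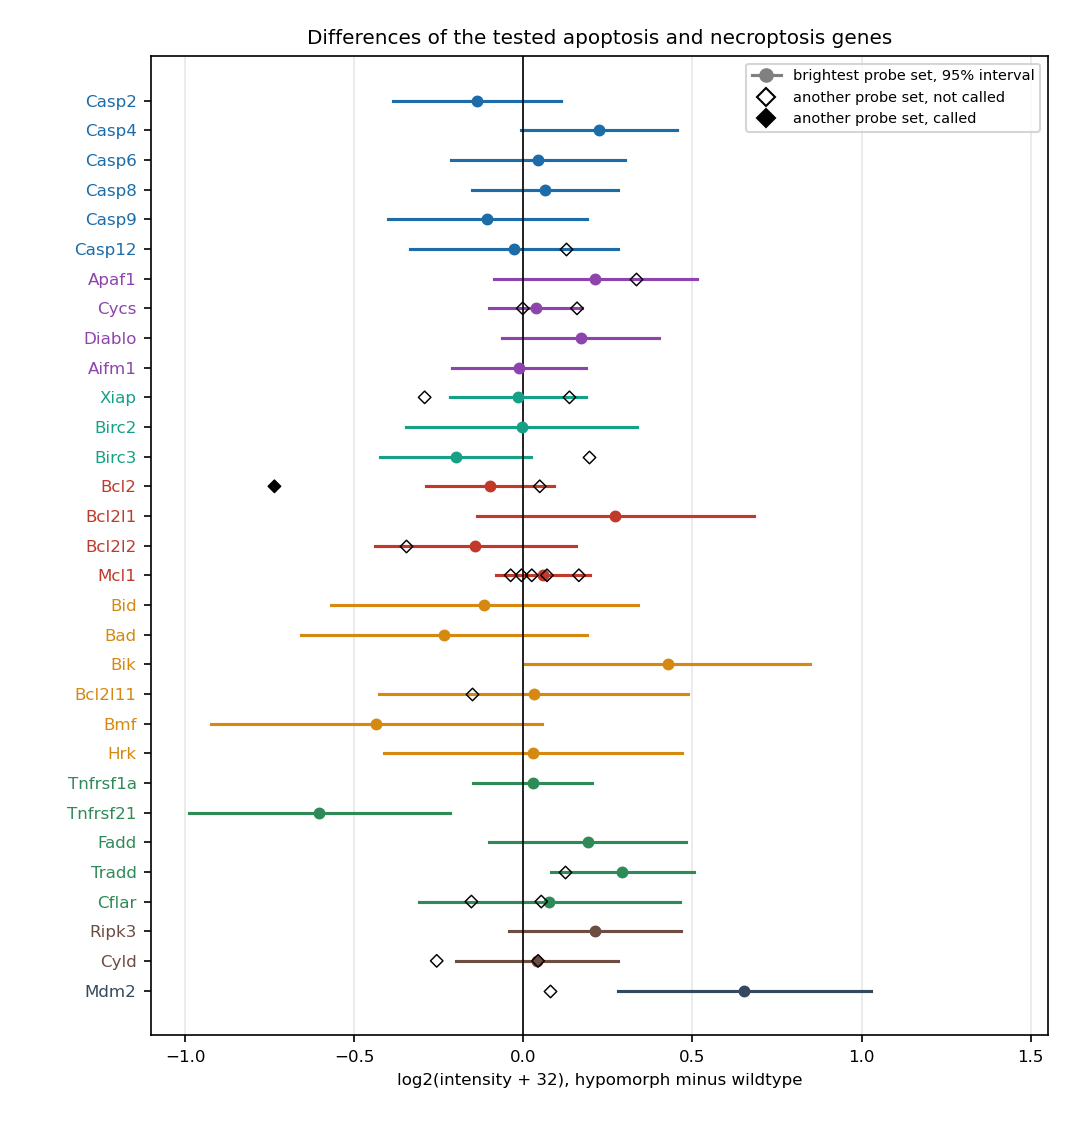
Difference between hypomorph and wildtype on the log2(intensity + 32) scale for the 31 tested genes; dots and lines give the brightest probe set with its 95% interval, diamonds the other tested probe sets, filled where called. The dots range from -0.60 (Tnfrsf21) to 0.65 (Mdm2), and the only filled diamond is the dimmest tested probe set of Bcl2 at -0.74.

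The pore former Bak1 was too dim to test, at 27.6 and 32.6 in hypomorph and 24.6 and 30.9 in wildtype. Bok, a related protein that can also form pores and belongs to the list of BCL2 relatives described further on, read 394 and 387 against 490 and 468. It was lower on both hypomorph arrays by -0.27 (interval -0.56 to 0.011) without a call (limma, adjusted p = 0.260). The BH3-only genes, the sensors that start the mitochondrial route, showed wide intervals. Of the 8 with probe sets 6 could be tested, and the interval stayed within 0.5 of equality for 2 of them, against 6 of 6 caspases.

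Bik, a BH3-only protein of the endoplasmic reticulum, read 398 and 268 in hypomorph against 216 and 255 in wildtype. The hypomorph arrays were the higher ones, but they differed among themselves by more than hypomorph replicate 2 differed from wildtype. The difference of 0.43 (SE 0.19) was not called (limma, adjusted p = 0.238). Bmf, a BH3-only protein linked to the cytoskeleton and to loss of cell attachment, had a difference of opposite sign, with 69.3 and 128.1 against 132 and 148. Its difference of -0.43 (SE 0.22) was not called either (adjusted p = 0.298 in limma). Both differences were carried by hypomorph replicate 1, without which they shrank to 0.17 for Bik and -0.10 for Bmf. Without hypomorph replicate 2 they were 0.69 and -0.76.

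Bcl2l11, which encodes BIM, showed more spread between replicates than between groups. Its brightest probe set read 1003 and 639 in hypomorph and 922 and 666 in wildtype, so replicate 1 was the higher array in both groups. The difference was 0.03 with an interval from -0.43 to 0.49, and a second probe set with closer replicates, at 591 and 634 against 684 and 683, gave -0.15. Bid, cut by caspase 8 to link the receptor route to the mitochondrion, read 125 and 204 against 178 and 175. Bad, which growth factor signalling holds inactive, read 55.0 and 77.9 against 72.3 and 94.98, and Hrk 74.4 and 44.99 against 51.7 and 62.1. The groups overlapped for all 3. Bbc3 and Pmaip1, which encode the p53-induced sensors PUMA and NOXA, were too dim to test, with no array above 6.81 and 40.9.

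The death receptors and adaptors carry the external signal. Tnfrsf1a, the main TNF receptor, read 7161 and 7759 in hypomorph and 7941 and 6731 in wildtype. The groups overlapped, and the interval of the difference ran from -0.15 to 0.20, so a change of the transcript beyond 1.15-fold upwards lay outside it. Fas and Tnfrsf10b, the receptors of FAS ligand and TRAIL, were too dim to test, with no array above 21.9 and 29.4.

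Tnfrsf21, known as death receptor 6, had the largest negative difference among the brightest probe sets of the members. It read 98.9 and 78.4 in the hypomorph samples and 163 and 139 in the wildtype samples. Both hypomorph values were lower, with a difference of -0.60 (SE 0.17, interval -0.99 to -0.22), but it missed the threshold (limma, adjusted p = 0.0889). Tradd, the adaptor that docks on the TNF receptor, read 1568 and 1451 in hypomorph and 1226 and 1224 in wildtype. The hypomorph arrays were higher by 0.29 (SE 0.09, interval 0.08 to 0.50), without a call (limma, adjusted p = 0.122), and a dim second probe set gave 0.12. Fadd, which recruits caspase 8, read 448 and 420 against 376 and 376, higher without overlap by 0.19 (interval -0.10 to 0.48). Cflar encodes c-FLIP, the decoy that blocks caspase 8, and its 3 tested probe sets gave 0.08, 0.05 and -0.15, with overlap in each.

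In the necroptosis group, Ripk3, the kinase that passes the death signal to Mlkl, read 868 and 784 in hypomorph against 694 and 722 in wildtype. It was higher on both hypomorph arrays, by 0.21 (SE 0.11, interval -0.04 to 0.47), but was not called (limma, adjusted p = 0.328). Mlkl, which breaches the plasma membrane, was too dim to test, with 11.3 and 9.43 against 10.2 and 18.9. Cyld, a deubiquitinase that frees Ripk1 for death signalling, read 1095 and 1093 against 1140 and 990, with overlap. Its interval ran from -0.20 to 0.28, and its other tested probe sets gave 0.04 and -0.26.

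Mdm2, the ubiquitin ligase that degrades p53 and is itself induced by p53, had the largest positive difference of the members. The brightest of its probe sets read 195 and 186 in hypomorph and 123 and 96.6 in wildtype. Both hypomorph arrays were clearly higher, with a difference of 0.65 (SE 0.17, interval 0.28 to 1.03), and it missed the threshold narrowly (limma, adjusted p = 0.0639). A second tested probe set read 147 and 129 against 126 and 132, with overlap and a difference of 0.08 (interval -0.28 to 0.44). The 2 probe sets thus differed in what they showed for Mdm2, and the mean over all its probe sets gave 0.19 (limma, adjusted p = 0.341).

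**Figure D3:**
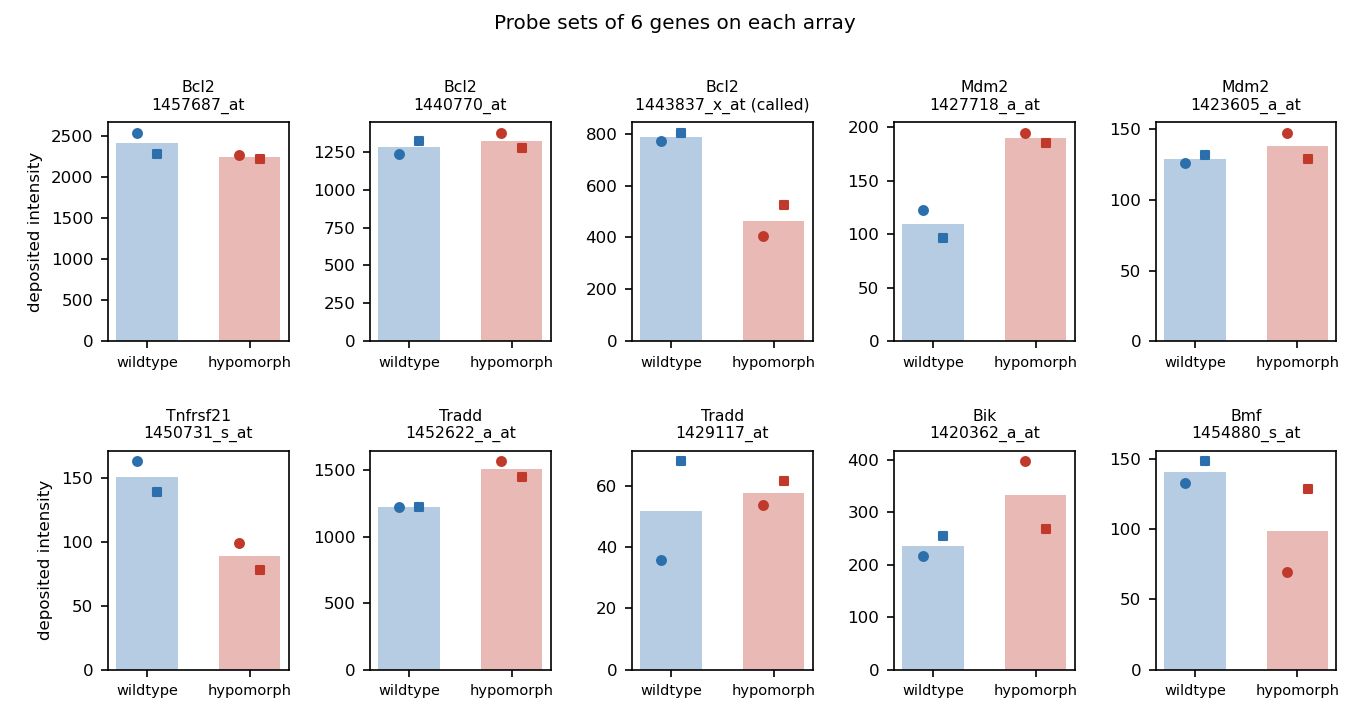
Deposited intensity on each array (circles replicate 1, squares replicate 2) with bars for the group mean, for every tested probe set of Bcl2, Mdm2, Tnfrsf21, Tradd, Bik and Bmf. The dimmest probe set of Bcl2 is the called one, at 404 and 524 in hypomorph against 773 and 803 in wildtype, beside 2 brighter ones whose groups lie close together.

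Other genes of the same pathways were read from 6 lists of 99 names, of which 87 had a probe set and 67 were tested. Of these 67 genes 1 was higher and 1 lower, against 2.53% and 1.70% of all genes, and their median difference was -0.04. In the list of BCL2, BNIP and IAP relatives 1 of 14 rose. This was Bcl2l15, a BCL2 relative known for its expression in the gut, which read 1886 and 1675 in the hypomorph samples and 1031 and 1010 in the wildtype samples. The groups were well apart, with a difference of 0.78 (SE 0.10, interval 0.56 to 1.00, adjusted p = 0.00203 in limma), and the call was kept without each array in turn. Bcl2l14, also called BCL-G, read 397 and 364 against 485 and 523, lower by -0.38 without a call (adjusted p = 0.144), and its second probe set gave -0.38 as well. Bnip3, a mitophagy receptor with a BH3-like stretch, read 311 and 288 against 242 and 215 (0.35, adjusted p = 0.218).

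The p53 target and partner genes lay mostly below equality. Of 14 tested genes 13 had a difference below 0, against 55.2% of all genes, and their median was -0.13. By the test 1 of them was called lower and 0 higher, where 1.70% and 2.53% of all genes were. This list, like the others, was chosen with earlier results of these data known. Trp53inp1 is a p53-induced gene that also takes part in autophagy. Its brightest probe set fell to 3184 and 3108 on the hypomorph arrays from 3995 and 3841 on the wildtype arrays. The difference was -0.31 (SE 0.07, adjusted p = 0.0378 in limma), and it stayed between -0.34 and -0.29 with each array left out in turn. The call was lost without wildtype replicate 1 (limma, adjusted p = 0.224) and without wildtype replicate 2 (adjusted p = 0.128). The other tested probe set of Trp53inp1, a much dimmer one, gave -0.07 with overlap and was not called (limma, adjusted p = 0.871). Polk, a DNA polymerase that copies across damage, read 569 and 575 against 723 and 780 and was not called (-0.37, adjusted p = 0.110). The exception above 0 was Cdkn1a, the cell cycle inhibitor p21 and a classic p53 target, at 2107 and 2175 against 1697 and 1803. It lay above wildtype on both arrays by 0.29 (SE 0.08), short of the threshold (limma, adjusted p = 0.0958). Of the 14 tested genes 9 read below wildtype on both arrays, as did 30.0% of all genes. Among them were the targets Sesn1, Perp, Aen and Btg2, named here after their values were seen, at -0.24, -0.14, -0.20 and -0.21 without a call, and other tested probe sets of Aen gave 0.05 and -0.0050. The groups overlapped for Ccng1, Zmat3, Sesn2 and Tigar on their brightest probe sets, at -0.06, -0.05, -0.0095 and -0.0036. Other tested probe sets of Ccng1 gave 0.10 and -0.45, both without overlap, and another of Tigar gave 0.16. Mdm2, also a p53 target, is not in this list, and its difference of 0.65 had the opposite sign.

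In the list of the TNF receptor complex and necroptosis partners 0 of 21 were called, against 4.23% of all genes. Without adjustment the limma p was under 0.05 for 2 higher and 1 lower gene, against 10.0% and 11.6% of all genes. Zbp1, a nucleic acid sensor that can activate Ripk3, read 157 and 145 in hypomorph against 92.7 and 91.2 in wildtype. It was higher without overlap by 0.56 (SE 0.16), and missed the threshold (limma, adjusted p = 0.0865). Tab2, a partner of the kinase TAK1, read 2825 and 2949 against 3403 and 3525, lower by -0.26 (adjusted p = 0.0784), with a dimmer probe set at -0.04. Traf5, a TNF receptor adaptor, read 307 and 318 against 236 and 113. The wildtype arrays differed from each other, the difference of 0.81 was not called (adjusted p = 0.108) but was called without wildtype replicate 1 (1.25, adjusted p = 0.00375), and a second probe set gave -0.01.

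The last 3 lists held no call, where 4.23% of all genes were called. Among genes of nuclear breakdown 0 of 8 were called. Endog, a mitochondrial nuclease, read 847 and 790 against 653 and 686 (0.28, adjusted p = 0.203). Septin4, whose ARTS product antagonises Xiap, gave 0.59 on 357 and 177 against 166 and 150, a difference carried by hypomorph replicate 1: it was called without hypomorph replicate 2 (1.04, adjusted p = 0.00873), and its other probe set gave -0.18. The nuclease Dffb gave -0.25. Among 7 tested inflammasome and pyroptosis genes 0 were called, and p without adjustment was under 0.05 for 1, which was lower, against 11.6% of all genes. This was Nlrp6, an epithelial inflammasome sensor, at 2174 and 2134 against 2387 and 2529 (-0.19, limma adjusted p = 0.220). Il18 gave 0.23 and Ninj1 0.18, with other tested probe sets of Ninj1 at 0.31 and -0.45. Among death ligands and further TNF receptors 3 of 11 were bright enough to test and 0 were called. Tnfsf10, which encodes TRAIL, read 1038 and 759 against 786 and 779, with overlap, the lymphotoxin gene Ltb gave -0.40 (adjusted p = 0.212) and Tnfrsf1b -0.23.

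**Figure D4:**
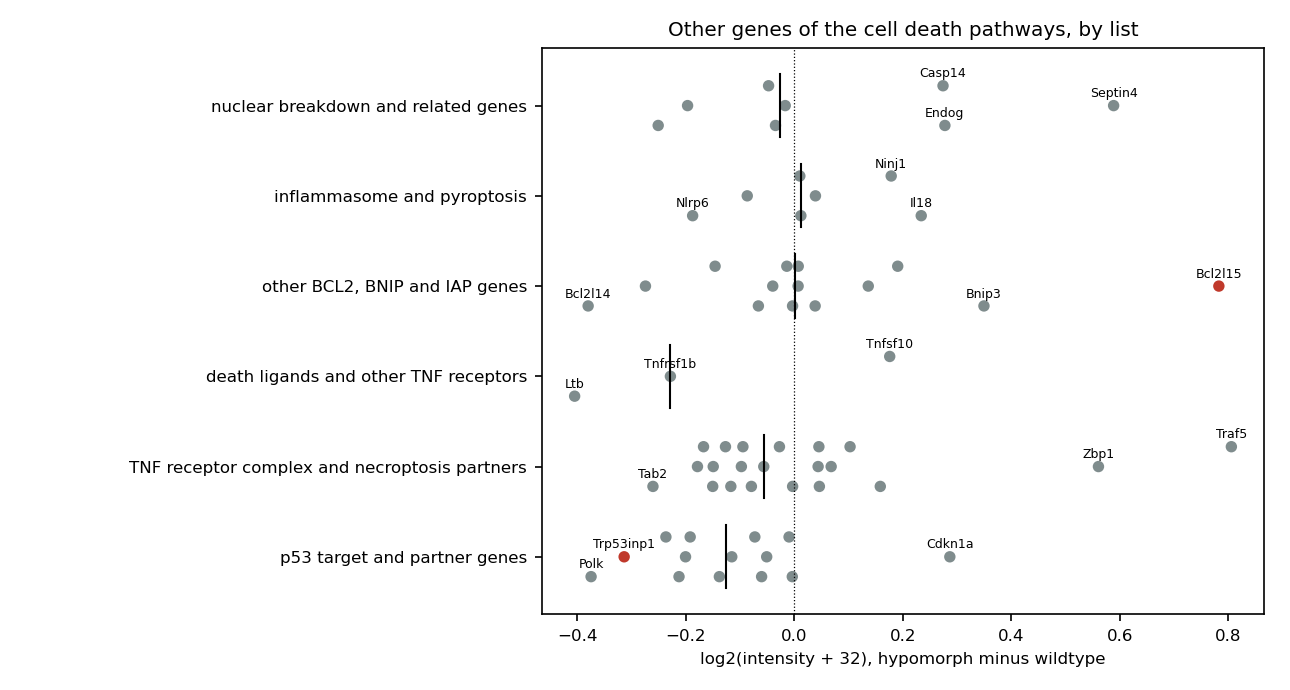
Difference between hypomorph and wildtype on the log2(intensity + 32) scale for the 67 other tested genes, by list, with a vertical bar at each list's median and called genes in red. Bcl2l15 (0.78) and Trp53inp1 (-0.31) are the 2 called genes, and 13 of 14 p53 target and partner genes lie left of 0.

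The captured tissue carried Paneth cell products in all samples, and markers of other cells moved with the groups. Lyz1, which encodes lysozyme, read between 14561 and 16021 on the 4 arrays, and the summed intensity of the 7 Paneth markers measured was 53274 and 57322 in hypomorph against 56465 and 57769 in wildtype. Of the 6 Paneth markers tested 1 was called higher, Reg3g (0.26, adjusted p = 0.0453 in limma), an antimicrobial lectin that enterocytes also make. The other 5 differed by -0.14 to -0.04 and were not called, Ang4 (-0.14) and Itln1 (-0.10) with p of 0.0237 and 0.0498 before adjustment in limma. The defensin gene Defa3 read no more than 3.84 on its probe set. Among all tested genes 2.53% were called higher and 1.70% lower. Of the fat cell markers 9 of 10 tested were called higher, with sums over 13 markers of 33195 to 33323 in hypomorph and 10446 to 10603 in wildtype. The remaining tested marker, Pparg, gave -0.13 and was not called. Cidea, Retn and Lipe were too dim to test, with no array above 11.8, 46.2 and 14.1 on their brightest probe sets. Of the enterocyte markers 7 of 12 were higher (sums of 35031 to 35679 against 26157 to 27203), and of the fibroblast and matrix markers 4 of 10 (33659 to 34444 against 29683 to 30131). Of the T and NK cell markers 2 of 8 were called higher, Gzma and Gzmb (sums of 2625 to 2829 against 1668 to 1959). Gzma made up most of these sums, at 1693 and 1514 in hypomorph against 952 and 939 in wildtype. Of the 8, 4 lay above 0 and 4 below. Among the latter were Cd7 (-0.42, with overlap) and Cd2 (-0.32, lower without overlap), neither of them called. Cd3e read no more than 51.6 and Cd8b1 no more than 13.97. Of the enteroendocrine markers 4 of 10 were lower (10321 to 10716 against 13114 to 14106), and of the crypt stem cell markers 3 of 10 (22571 to 22926 against 25237 to 25775). The part of these shifts in the values of Bcl2l15, Bcl2, Trp53inp1 and the other genes above was not tested.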

How the data were processed

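The authors deposited 1 linear intensity per probe set and array. The sources used here do not give background correction, summarisation, scaling or genome build. Array medians lay between 47.4 and 49.6, so values were not scaled again; all value columns were used. Control probe sets (64 of 45101) were left out. Of the rest, 34945 carried 1 symbol in the platform annotation, 932 several and 9160 none, and only the first were named. A RefSeq table (assembly GRCm38.p6) held the gene ID of 34741 and changed 0 symbols; it served for names and chromosomes.

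Probe sets at or above the median mean log2(intensity + 32) of 6.32 (22519) were tested in limma 3.58.1 under R 4.3.3 (lmFit, eBayes with intensity trend, group as the only term, 2 residual and 7.81 prior degrees of freedom), two-sided, with Benjamini-Hochberg adjustment over these probe sets. Adding 32 understates the change of dim genes. Intervals are 95% intervals from this fit. The number of arrays limits the precision: an exact permutation test of 2 against 2 cannot go below p = 0.333, and the fit borrows its spread across probe sets. Since no label ties arrays to separate animals, the p-values reflect the spread among these 4 samples alone, and that spread may be technical.

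Values on each array are given for members with a called probe set, the 2 members per role with the smallest p, members whose tested probe sets disagree in sign, and up to 3 genes per pathway list (called first, by size, then smallest p); other members are given to account for all of them, and Sesn1, Perp, Aen and Btg2 were named after their values were seen. The members and lists were chosen with earlier results of these data known. Marker sums add the brightest probe set of each marker. Marker lists of goblet, B and plasma, endothelial, muscle and enteric nerve cells and macrophages were read too; of their genes 0 of 8, 0 of 7, 0 of 7, 0 of 7, 1 of 5 and 1 of 7 were called higher and 0, 0, 0, 1, 0 and 0 lower.

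The fit was tested on simulated data, in which 200 of the 22519 probe sets differed between hypomorph and wildtype. The fit recovered 12.0% of changes of 0.5, 72.0% of 1 and 100% of 2 on the log2 scale, with 3 false among 101 calls. In the data 836 probe sets were called, more than were changed in the simulation, so these rates may not carry over. Alternatives were quantile normalization, median centring, adding 1 or 128, other filters, no trend, a robust prior, a block for the replicate number, the mean of a gene's probe sets, and each array left out.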

Additional observations from a re-analysis of the deposited data

How the results depend on the processing

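The counts of 0 members higher and 0 lower were the same under 12 of 14 alternatives each; without single arrays they ranged from 0 to 1 and from 0 to 1. The median difference of the members stayed between -0.02 and 0.05, within the spread between replicates. Over all probe sets, 183 were called higher and 120 lower without a filter, 192 and 131 without the intensity trend, and 317 to 706 higher and 178 to 942 lower without single arrays, the highest counts being without hypomorph replicate 2, against 459 and 377. With the replicate block 1489 of the 22519 tested probe sets were called higher and 1717 lower, so calls rose across the whole array. Of the 31 members, each by its brightest probe set, 3 were then called higher (Mdm2, Tradd and Bik) and 1 lower (Tnfrsf21). Of the other genes named, the block also called Cdkn1a, Zbp1, Traf5 and Septin4 higher and Polk, Tab2 and Bcl2l14 lower. Deviations of arrays with the same number correlated at 0.26, but no label says what a number marks and there are only 2 pairs, so the block was not taken as pairing. The call of the called Bcl2 probe set was also lost without a filter (adjusted p = 0.0927) and without the trend (adjusted p = 0.0873), and that of Trp53inp1 without a filter (0.116), without the trend (0.194) and with the mean of its probe sets (0.300), all in limma; Bcl2l15 was called under all 14. Uncalled differences that changed sign were, with the mean of all probe sets, Diablo at -0.033, Xiap at 0.049, Cyld at -0.025, Casp12 at 0.049, Cycs at -0.090 and Bcl2l11 at -0.066. That mean takes in probe sets too dim to test, such as those of Cycs at -0.55 and Diablo at -0.24. Without single arrays the differences that changed sign were Xiap (-0.047 to 0.015), Bcl2l11 (-0.28 to 0.34), Casp12 (-0.12 to 0.060), Cyld (-0.058 to 0.14), Cflar (-0.076 to 0.23), Tnfsf10 (-0.041 to 0.39) and Ninj1 (-0.012 to 0.37). The cause was not tested. Signal near the floor kept 6 members from being tested.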
